A study of Mus musculus with 24 samples.

Results

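The dependence of the tunicamycin response on ATF4 was measured as a difference of responses between a wild-type and an ATF4-/- mouse fibroblast line. For each probe set, the tunicamycin minus untreated change in wild-type cells was subtracted from the same change in ATF4-/- cells, on a log2 scale. A negative difference therefore means that ATF4-/- cells had the smaller rise, or the larger fall. The contrast used 8 of the 24 arrays of the series, with 2 untreated and 2 treated arrays for each line, and every probe set except the AFFX controls, 12422 in all. Treated cells had received tunicamycin at 2 ug/ml for 6 h. The rule named the samples and the contrast and used no measured value.

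Tunicamycin blocks N-linked glycosylation, so that unfolded glycoproteins collect in the endoplasmic reticulum (ER). Mammalian cells sense this through PERK, ATF6 and IRE1. PERK phosphorylates the translation factor eIF2alpha, which lowers protein synthesis in general but favours translation of the mRNA of ATF4, a bZIP transcription factor with known targets in amino acid uptake and synthesis, tRNA charging and the feedback on eIF2alpha. ATF6 and the IRE1 product XBP1 are known mainly for ER chaperones, glycosylation and ER-associated degradation.

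The remaining 16 arrays held tunicamycin experiments on a PERK-/- line and experiments on 2 lines carrying Fv2E-PERK, a chimeric kinase that the drug AP20187 activates by dimerization, with no ER stress needed. Of these, only the SS line (wild-type eIF2alpha on a PERK-/- background) and the AA line (mutant eIF2alpha) are used below, at 8 h of AP20187. All 24 arrays entered the fit, so that the spread was estimated over all 12 groups. Each genotype was represented by a single line, so the absence of ATF4 and other differences between the lines cannot be told apart. Nothing in the labels states that arrays of one group were hybridised with RNA of separate cultures. The p-values therefore reflect the spread of these samples alone, and that spread may be technical. Over the 7369 probe sets tested, arrays of the same group had correlations of 0.740 to 0.785 among the 8. Between 22.6% and 25.6% of the values on each of them were at 0.01, the lowest value in the table, called the floor here. Ratios cannot show whether a marker is expressed strongly. On no array of the series were 10 of 12 fibroblast and 6 of 8 smooth muscle markers at the floor. The same held for 3 of 10 leukocyte, 2 of 8 endothelial, 1 of 7 epithelial and 3 of 5 adipocyte markers, and for 59.3% of all probe sets.

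Each deposited value relates a probe set to that probe set's median in the series, so a level of 1 is a usual level for that probe set and levels of different genes cannot be compared. Folds are ratios of group means of these ratios. Log2 changes and differences were taken on log2(ratio + 0.247), which understates changes at low values, and are given with their standard error (SE).

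Promoters are shown first for genes whose values are given below, because sequence motifs known for ATF4 and for ATF6 were found in different gene groups. The 150 bases before the annotated start are printed 5′ to 3′ on the gene's strand, from RefSeq on GRCm38.p6. In the first 5, capitals mark TGATGNAA on either strand, the core of the C/EBP-ATF response element. Atf3 (chr1:191183334-191183483, minus strand) encodes a bZIP factor, Asns (chr6:7693210-7693359, minus strand) asparagine synthetase, Aars (chr8:111033692-111033841, plus strand) and Gars (chr6:55037851-55038000, plus strand) the alanyl- and glycyl-tRNA synthetases, and Slc7a11 (chr3:50443614-50443763, minus strand) the cystine transporter.
Atf3: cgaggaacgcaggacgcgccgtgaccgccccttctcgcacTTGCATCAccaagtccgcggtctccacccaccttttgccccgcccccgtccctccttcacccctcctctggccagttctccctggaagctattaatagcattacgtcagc
Asns: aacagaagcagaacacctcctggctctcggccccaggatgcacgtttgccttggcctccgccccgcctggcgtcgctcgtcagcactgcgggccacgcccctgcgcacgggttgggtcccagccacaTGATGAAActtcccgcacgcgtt
Aars: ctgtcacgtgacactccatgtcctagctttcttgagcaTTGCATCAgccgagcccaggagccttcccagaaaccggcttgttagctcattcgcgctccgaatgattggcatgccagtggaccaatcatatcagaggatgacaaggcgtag
Gars: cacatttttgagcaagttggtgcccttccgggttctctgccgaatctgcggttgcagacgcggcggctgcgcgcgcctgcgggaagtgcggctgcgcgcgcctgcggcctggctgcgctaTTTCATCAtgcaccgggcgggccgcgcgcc
Slc7a11: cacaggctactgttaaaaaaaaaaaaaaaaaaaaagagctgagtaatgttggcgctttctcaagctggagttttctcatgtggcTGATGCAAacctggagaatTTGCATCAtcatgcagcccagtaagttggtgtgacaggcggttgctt

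In the other 4, capitals mark the ends of the ER stress response element, CCAAT and CCACG with 9 bases between them, on either strand. Hspa5 (chr2:34771940-34772089, plus strand) encodes the Hsp70 chaperone BiP, Creld2 (chr15:88819496-88819645, plus strand) an ER-resident folding factor, Pdia6 (chr12:17266439-17266588, plus strand) a protein disulfide isomerase and Hsp90b1 (chr10:86705445-86705594, minus strand) the ER Hsp90.
Hspa5: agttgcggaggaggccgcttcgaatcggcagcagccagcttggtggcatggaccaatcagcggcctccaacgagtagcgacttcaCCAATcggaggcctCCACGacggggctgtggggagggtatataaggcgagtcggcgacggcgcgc
Creld2: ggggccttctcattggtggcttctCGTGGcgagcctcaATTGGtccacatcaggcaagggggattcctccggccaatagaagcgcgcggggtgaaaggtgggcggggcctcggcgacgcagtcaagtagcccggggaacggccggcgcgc
Pdia6: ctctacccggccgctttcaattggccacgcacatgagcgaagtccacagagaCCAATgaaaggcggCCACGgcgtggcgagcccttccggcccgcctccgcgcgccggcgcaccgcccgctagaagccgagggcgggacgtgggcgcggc
Hsp90b1: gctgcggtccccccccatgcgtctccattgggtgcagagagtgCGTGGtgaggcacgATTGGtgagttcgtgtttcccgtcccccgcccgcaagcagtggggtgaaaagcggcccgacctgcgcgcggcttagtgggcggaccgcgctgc

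TGATGNAA was found on either strand of 1304 of 32851 RefSeq promoters, which is 3.97% of windows running from 250 bases before to 50 bases after the start. It was in 5 of 12 tRNA synthetase promoters (41.7%), 4 of 17 promoters of stress response regulators (23.5%), 4 of 19 of amino acid transporters (21.1%) and 2 of 17 of amino acid synthesis enzymes (11.8%). ER chaperone promoters held it in 1 of 28 (3.57%), and promoters of ER degradation and trafficking genes in 1 of 31 (3.23%). Promoters of NF-kB and inflammatory genes held it in 2 of 23 (8.7%), and those of the Gadd45 family and p53 targets in 1 of 10 (10%). The spaced CCAAT and CCACG pair was in 39 promoters (0.119%) and in 8 of 28 ER chaperone promoters (28.6%). It was in 0 promoters of the other groups named here. The printed windows hold no overlap of the 2 motifs. A match is a description of the letters and not a measured binding site. Gadd45g, whose difference had the opposite sign to that of the regulators, also held TGATGNAA, from position -101 relative to its start. Herpud1, which rose in both lines, held it from -112. Matches also came from genes with no measurable response, such as Slc7a7, at the floor on all 8 arrays, and Got1, at the floor on 7 of them.

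The targeted gene was read first. In wild type Atf4 read 0.770 and 0.745 untreated, then 1.64 and 1.62 after tunicamycin. In ATF4-/- cells it read 0.170 and 0.133, then 0.166 and 0.153. All 4 ATF4-/- arrays lay below all 4 wild-type arrays, and only the wild-type values moved with treatment. Atf4 rose 2.15-fold in wild type (limma adjusted p = 0.00418) and was 1.05-fold its untreated level in ATF4-/- cells. Whether this probe set lies in the deleted part of the gene is unknown, so it shows a lower signal in the line labelled ATF4-/- and not the loss of the protein.

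Of the 7369 probe sets tested, 4 differed in response between the lines at a limma adjusted p under 0.05 (0.0543%), 2 lower and 2 higher in ATF4-/- cells. The balance of the calls moved with single untreated arrays. There were 18 lower and 4 higher without the first untreated wild-type array, 15 and 5 without the second, and 3 lower and 11 higher without the second untreated ATF4-/- array. At an unadjusted p under 0.05, 289 had a lower response in ATF4-/- cells (3.92%) and 221 a higher one (3%). The median difference over all tested probe sets was 0.00, and 49.9% lay below 0. Wild-type cells had 151 probe sets called higher (2.05%) and 56 called lower (0.76%) after tunicamycin, and ATF4-/- cells had 65 called higher (0.882%) and 20 called lower (0.271%). These counts changed with the arrays that were fitted. When the 8 arrays were fitted alone, the calls were 0 for the difference, 52 for the wild-type response and 0 for the ATF4-/- response, and with the 12 tunicamycin arrays they were 0, 62 and 31. The median residual SD was 0.214 on the 8 arrays, 0.249 on the 12 tunicamycin arrays and 0.199 on the Fv2E-PERK arrays.

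**Figure D1:**
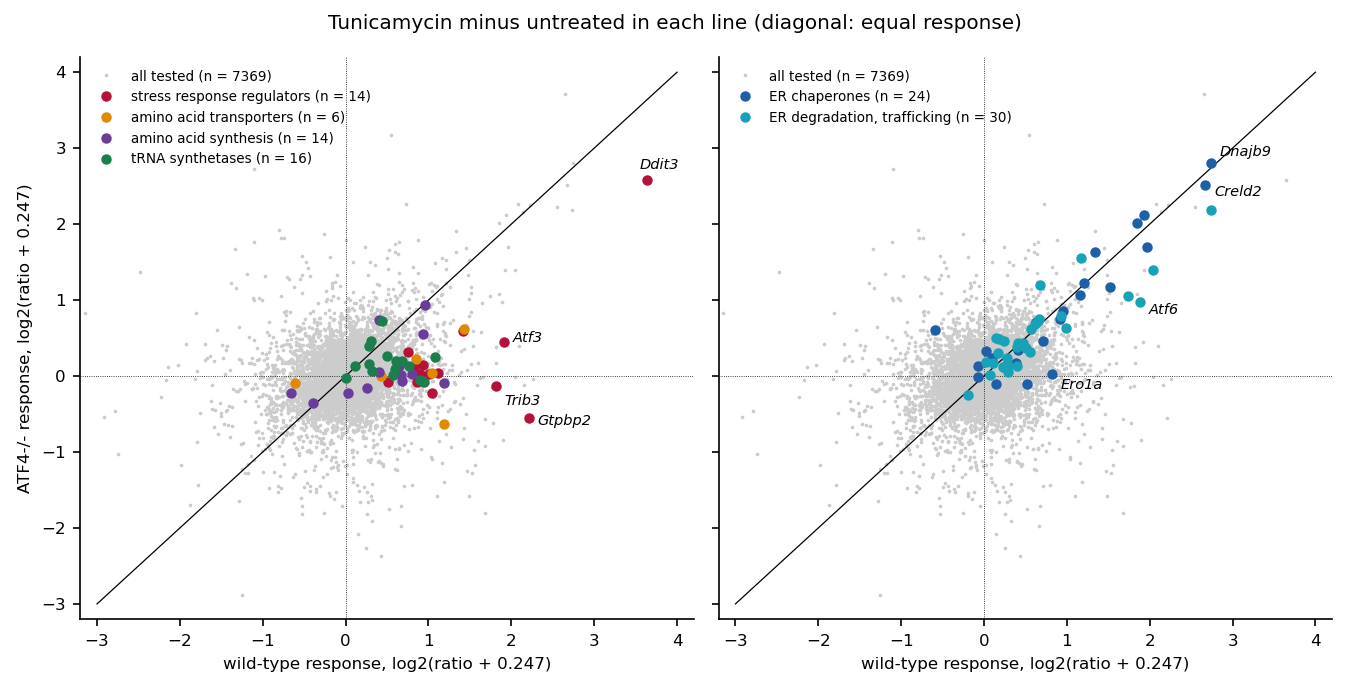
Tunicamycin response of each probe set in wild-type cells (x axis) and ATF4-/- cells (y axis), both on log2(ratio + 0.247), with all 7369 tested probe sets in grey. Regulators and amino acid and tRNA genes (left) lay mostly under the diagonal of equal response, with median responses of the regulators of 1.03 and 0.04, while ER chaperones (right) lay along it, with medians of 0.77 and 0.66.

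The regulators of the integrated stress response, which are transcription factors and feedback genes, had lower point estimates of the response in ATF4-/- cells than in wild type for every gene tested. Of 23 genes listed, 17 were on the array and 14 were tested. All 14 differences were below 0, with a median of -0.96, or -0.99 without Atf4, against 0.00 over all tested probe sets. None of the 14 was called in the difference by limma after adjustment, while 11 had an unadjusted p under 0.05 with a lower response in ATF4-/- cells, or 7 after quantile normalization. The share of all tested probe sets was 3.92% in the main setting. Wild-type cells raised 10 of the 14 and ATF4-/- cells raised 1, Ddit3, against 2.05% and 0.882% of all tested probe sets. Both treated arrays lay above both untreated arrays for 14 of 14 regulators in wild type, against 22.1% of all tested probe sets, and for 4 of 14 in ATF4-/- cells, against 25%. Those 4 were Ddit3, Atf3, Cebpg and Nfil3. Atf4, the targeted gene, is itself counted among the 14 below 0, the 11, the 10 and the 14 of 14 in wild type. Fitted on the 8 arrays alone, 5 regulators were called higher in wild type and 0 in ATF4-/- cells, and in wild type 4 were called higher without the second untreated wild-type array and 6 without either treated wild-type array.

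Ddit3 encodes CHOP, a bZIP factor tied to cell death under prolonged ER stress. Its wild-type ratios were 0.705 and 0.323, then 9.0 and 8.92 with tunicamycin, and its ATF4-/- ratios were 0.348 and 0.235, then 2.86 and 3.05. Treated arrays stood far above untreated ones in both lines, and the treated wild-type arrays stood above the treated ATF4-/- arrays. Ddit3 rose 17.4-fold in wild type (limma adjusted p = 5.87e-07) and 10.1-fold in ATF4-/- cells (limma adjusted p = 6.63e-05). The difference was -1.06 ± 0.35 (SE), with a 95% interval from -1.81 to -0.32 and a limma adjusted p of 0.423. Its size depended on the setting, at -0.29 after quantile normalization, -1.43 without the first untreated wild-type array and -0.69 without the second.

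Trib3 encodes a pseudokinase that acts in feedback on ATF4 and CHOP. Its 4 wild-type ratios were 0.989 and 0.457 untreated and 3.05 and 3.0 treated, and its 4 ATF4-/- ratios were 0.440 and 0.420 untreated and 0.408 and 0.340 treated. Tunicamycin raised it 4.19-fold in wild type, and both treated ATF4-/- arrays lay below both untreated ones, at 0.870-fold. The difference was -1.94 ± 0.40 (95% interval -2.79 to -1.09), with a limma adjusted p of 0.121. It was -2.35 without the first untreated wild-type array and -1.53 without the second.

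Gtpbp2, which encodes a GTP-binding protein of ribosome rescue, read 0.263 and 0.249, then 2.07 and 2.10 after treatment in wild type. In ATF4-/- cells it read 1.01 and 0.242 untreated and 0.289 and 0.289 treated. One untreated ATF4-/- array stood apart from the other, and both treated ATF4-/- arrays were near the untreated wild-type level. The difference was -2.76 ± 0.59 with a limma adjusted p of 0.127. It was -2.08 without the first untreated ATF4-/- array, the one that stood apart, and -3.45 without the second. Stress-inducible Atf3 read 0.908 and 0.771, then 4.34 and 3.41 after treatment in wild type, and 0.716 and 0.688, then 1.10 and 0.999 in ATF4-/- cells. The treated ATF4-/- arrays of Atf3 were above their untreated ones but below both treated wild-type arrays. Its folds were 4.61 and 1.49 and its difference was -1.47 ± 0.49 (limma adjusted p = 0.431), while another Atf3 probe set gave -0.57 ± 0.47.

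Ppp1r15a encodes GADD34, the subunit that directs a phosphatase to eIF2alpha and closes the feedback loop. It was outside the test because 1 untreated wild-type array was at the floor. Its ratios were 0.01 and 0.330, then 5.49 and 5.35 with tunicamycin in wild type, and 0.415 and 0.521, then 0.765 and 0.575 in ATF4-/- cells. The treated wild-type arrays stood apart from all 6 others. With a filter that allowed 1 of the 8 arrays at the floor, its difference was -3.52 ± 0.43 (limma adjusted p = 0.00388), a value that rests in part on the array at the floor. The stress-induced chromatin protein gene Nupr1 was also untested, with ratios of 0.991 and 0.422, then 1.65 and 1.94 in wild type and no ATF4-/- value above 0.0695. Ddit4, an mTORC1 inhibitor gene, was listed at the floor on all 4 ATF4-/- arrays and on 1 untreated wild-type array, with 0.247, 0.151 and 0.516 on the other 3.

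Among the other regulators, the metastasis suppressor Ndrg1 had folds of 2.37 in wild type and 0.820 in ATF4-/- cells and a difference of -1.27 ± 0.38, and another of its probe sets gave -1.91 ± 0.46. The bZIP factor Atf5 had folds of 2.83 and 1.12 and a difference of -1.07 ± 0.37, with all 4 ATF4-/- ratios under 0.1, where the log2 scale compresses changes most. Stc2, which encodes the secreted stanniocalcin-2, had folds of 2.17 and 0.990 and a difference of -0.99 ± 0.33. For the bZIP factor Cebpb the folds were 1.96 and 0.907 and the difference -0.94 ± 0.30, and for the bZIP repressor Nfil3 they were 3.17 and 1.69 and -0.82 ± 0.31. The wild-type response of each of these 5 genes passed the test and the ATF4-/- response of none did. For Ndrg1 (limma adjusted p = 0.0476) and Cebpb (0.0447) the wild-type call was near the threshold and was made in 4 and 9 of the 21 settings, against 13 for Atf5, 14 for Stc2 and 21 for Nfil3. Eif4ebp1, which encodes a translational repressor, had a difference of -0.71 ± 0.30. Klf4 (-0.80 ± 0.63), Vldlr (-0.59 ± 0.57) and Cebpg (-0.44 ± 0.28) had differences below 0 at an unadjusted p above 0.05, and a second Vldlr probe set gave 0.08 ± 0.70.

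**Figure D2:**
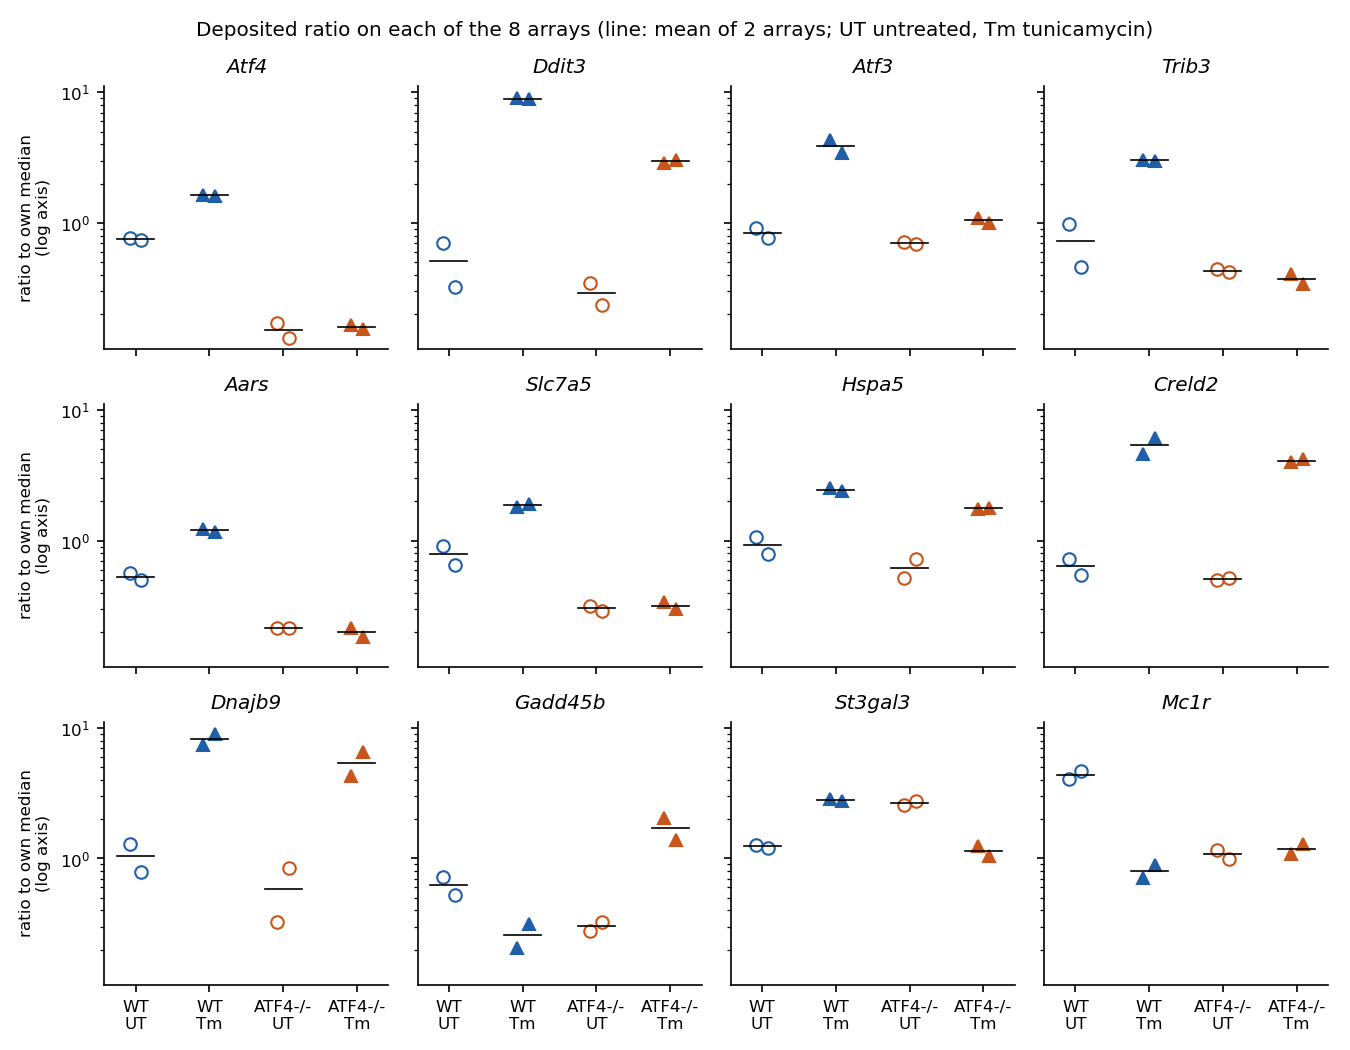
Deposited ratio (log axis, relative to each probe set's own median) of 12 genes on each of the 8 arrays, with blue for wild type, orange for ATF4-/-, open circles for untreated, triangles for tunicamycin and a line for the mean of 2 arrays. Treated arrays lay above untreated ones in both lines for Ddit3, Hspa5, Creld2 and Dnajb9, and in wild type but not in ATF4-/- cells for Trib3, Aars and Slc7a5.

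Amino acid transporters on the array numbered 14 of 15 listed, but only 6 were tested, and 3 (Slc7a1, Slc7a3 and Slc7a7) were at the floor on all 8 arrays. The median difference of the 6 was -0.73, with 5 below 0 and 0 called by limma. At an unadjusted p under 0.05, 3 had a lower response in ATF4-/- cells, against 3.92% of all tested probe sets. Wild-type cells raised 3 of the 6 (Slc3a2, Slc7a5 and Slc6a9), and ATF4-/- cells raised 0, against 2.05% and 0.882% of all tested probe sets. With the 8 arrays alone 2 were called higher in wild type, and 1 was without the first untreated wild-type array, without either treated wild-type array or without either treated ATF4-/- array.

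Slc3a2 encodes the heavy chain that carries large neutral amino acid transporters to the membrane. Its ratios were 0.922 and 0.641, then 2.5 and 2.51 in wild type, and 0.502 and 0.439, then 0.914 and 0.796 in ATF4-/- cells. Treated arrays were above untreated ones in both lines, with folds of 3.21 and 1.82 and a difference of -0.82 ± 0.30 (limma adjusted p = 0.516). Its partner Slc7a5, the leucine transporter light chain, read 0.912 and 0.657, then 1.83 and 1.91 in wild type, and 0.316 and 0.291, then 0.339 and 0.297 in ATF4-/- cells. The ATF4-/- arrays of Slc7a5 overlapped between treatments and all 4 lay below the wild-type arrays. Its folds were 2.38 and 1.05 and its difference -1.01 ± 0.37 (limma adjusted p = 0.516). The cystine transporter Slc7a11 had a difference of -1.81 ± 0.76, but its untreated wild-type arrays read 0.115 and 1.30. For the glycine transporter Slc6a9 it was -0.64 ± 0.30, for Slc38a2, a glutamine transporter, -0.42 ± 0.27, and for Slc38a4 0.51 ± 0.28, the one in the other direction. Among untested transporters, the neutral amino acid carrier Slc1a4 read 0.769 and 0.621, then 1.28 and 2.01 in wild type and 0.166, 0.096, 0.01 and 0.01 in ATF4-/- cells.

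Enzymes of amino acid synthesis and one-carbon metabolism had a median difference of -0.40 over 14 tested of 15 on the array (23 listed). Of these, 11 lay below 0, 0 were called by limma and 3 (Aldh18a1, Psph and Asns) had an unadjusted p under 0.05. All tested probe sets had a lower response at that level in 3.92%. Wild-type cells raised 2 of the enzymes (Aldh18a1 and Psph) and ATF4-/- cells raised 0, against 2.05% and 0.882% of all tested probe sets. Fits on the 8 arrays, on the 12 tunicamycin arrays, or without the second untreated or the second treated wild-type array called 0 of them, and the fit without the first treated wild-type array called 1. Aldh18a1 makes the precursor of proline and ornithine, and read 0.824 and 0.592, then 1.82 and 2.0 in wild type, and 0.0898 and 0.272, then 0.0981 and 0.199 in ATF4-/- cells. The wild-type groups stood apart and the ATF4-/- groups overlapped. The difference was -1.28 ± 0.32 (limma adjusted p = 0.190), although another, more variable Aldh18a1 probe set gave 0.26 ± 0.72. Psph, the last enzyme of serine synthesis, had folds of 1.79 and 0.921 and a difference of -0.75 ± 0.21.

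Asns, a textbook ATF4 target, read 0.882 and 0.673, then 1.27 and 1.48 in wild type, and 0.195 and 0.175, then 0.219 and 0.158 in ATF4-/- cells. Treated wild-type arrays were above untreated ones, a 1.77-fold difference that did not pass (limma adjusted p = 0.0771), and the ATF4-/- groups overlapped. The difference of responses was -0.66 ± 0.27, and a second probe set gave -0.94 ± 0.38. Before treatment, Asns was already lower in ATF4-/- than in wild-type cells (-1.24 on the log2 scale, limma adjusted p = 0.00469). Phgdh, the first enzyme of serine synthesis, passed in neither line, with folds of 1.02 and 0.840 and a difference of -0.25 ± 0.27. Those with a difference above 0 were Got2 (0.44 ± 0.93), Asl (0.33 ± 0.50) and Ass1 (0.05 ± 0.34), enzymes of aspartate and arginine metabolism.

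Cytosolic tRNA synthetases, the enzymes that load each tRNA with its amino acid, had a median difference of -0.33 over 16 tested of 19 on the array (20 listed). Of the 16, 12 lay below 0, 0 were called by limma, and 4 (Aars, Gars, Lars and Wars) had an unadjusted p under 0.05, or 7 without the first untreated wild-type array. By the chosen probe sets, wild-type cells raised 6 (Aars, Eprs, Gars, Iars, Lars and Wars) and ATF4-/- cells raised 0. Another Wars probe set was called higher in both lines. Of all tested probe sets, 2.05% and 0.882% were called higher, and 3.92% had a lower response in ATF4-/- cells at an unadjusted p under 0.05. The call of Eprs was made in 4 of 21 settings and that of Iars in 11. The fit on the 8 arrays alone called 2 of them in wild type, the fit on the 12 tunicamycin arrays called 3, and the fit without the second untreated wild-type array called 2. Aars read 0.561 and 0.501, then 1.24 and 1.17 in wild type, and 0.216 and 0.214, then 0.213 and 0.183 in ATF4-/- cells. Both treated ATF4-/- arrays lay below both untreated ones, and all 4 lay below wild type. Folds were 2.26 and 0.922, and the difference was -0.95 ± 0.20, with a 95% interval from -1.38 to -0.52 and a limma adjusted p of 0.127.

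Gars read 0.918 and 0.740, then 1.76 and 1.87 in wild type, and 0.381 and 0.358, then 0.337 and 0.335 in ATF4-/- cells. It showed the same arrangement of arrays as Aars, with a difference of -1.02 ± 0.24 (limma adjusted p = 0.168). For the tryptophanyl enzyme Wars the difference was -0.83 ± 0.24, with -0.69 ± 0.29 and -0.09 ± 0.44 from other probe sets. The first of these others rose 3.94-fold in wild type and 2.99-fold in ATF4-/- cells (limma adjusted p = 0.000337 and 0.0343). The second had folds of 2.41 and 2.34 and was called in neither line. For the leucyl enzyme Lars the difference was -0.64 ± 0.18. Of the synthetases in the other direction, both subunits of the phenylalanyl enzyme, Farsa (0.28 ± 0.34) and Farsb (0.15 ± 0.30), and the arginyl and glutaminyl enzymes Rars (0.11 ± 0.27) and Qars (0.03 ± 0.25) had intervals that spanned 0. The cysteinyl enzyme Cars was not tested, at 0.915 and 0.574, then 1.85 and 1.72 in wild type, and at the floor on all 4 ATF4-/- arrays. Sars, the seryl enzyme, also untested, read 0.290 and 0.0479, then 0.942 and 1.2 in wild type, and at most 0.0493 in ATF4-/- cells.

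Untreated ATF4-/- cells already had lower levels of some of these genes. Over all tested probe sets, 41 were called lower (0.556%) and 23 higher (0.312%) in ATF4-/- than in wild-type cells before treatment, a contrast added after the data were seen. Without the first untreated wild-type array the balance turned, with 27 lower and 45 higher, and without the second there were 28 lower and 22 higher. The lower ones included 2 of 14 regulators (Atf4 and Cebpb), 4 of 14 synthesis enzymes (Asns, Psat1, Psph and Aldh18a1) and 4 of 16 synthetases (Aars, Gars, Iars and Lars). The list medians of this untreated contrast were -0.46, -0.46 and -0.41, and -0.19 for the transporters, of which 0 were called, against 0.02 over all tested probe sets. ER chaperones had a median of -0.24 and genes of ER degradation and trafficking -0.11, with 0 called in both. Fitted on the 8 arrays alone, 1 regulator, 0 synthesis enzymes and 0 synthetases were called lower. Without the first untreated wild-type or the first untreated ATF4-/- array, 1 regulator, 1 synthesis enzyme and 0 synthetases were. After quantile normalization 7 synthetases were. This contrast and the difference of responses share the 4 untreated arrays, so the untreated values enter both with opposite signs. Its part in the size of the differences was not tested.

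ER chaperones and folding enzymes responded in both lines. Of 29 listed, 26 were on the array and 24 were tested, and their median difference was -0.07, with 13 below 0 and 11 above. The median response was 0.77 in wild type and 0.66 in ATF4-/- cells, and 12 and 9 members were called higher, against 2.05% and 0.882% of all tested probe sets. None was called in the difference by limma. At an unadjusted p under 0.05, 1 of the 24, Ero1a, had a lower response in ATF4-/- cells, against 3.92% of all tested probe sets. Both treated arrays lay above both untreated ones for 17 of 24 in wild type and 18 of 24 in ATF4-/- cells, against 22.1% and 25% of all tested probe sets. With the 12 tunicamycin arrays 10 and 8 were called higher, and with the 8 arrays alone 7 and 0. Over the settings tried, the median difference ran from -0.15 to 0.10, so its sign is not fixed.

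BiP (Hspa5), the main Hsp70 of the ER lumen, read 1.07 and 0.788, then 2.54 and 2.38 in wild type, and 0.519 and 0.724, then 1.75 and 1.78 in ATF4-/- cells. It rose 2.65-fold and 2.84-fold, with a difference of 0.01 ± 0.24 and a 95% interval from -0.50 to 0.53. Creld2 read 0.722 and 0.548, then 4.63 and 6.12 in wild type, and 0.504 and 0.518, then 3.97 and 4.21 in ATF4-/- cells. Treated and untreated arrays of Creld2 were far apart in both lines, with folds of 8.46 and 8.00 and a difference of -0.15 ± 0.25 (95% interval -0.69 to 0.39). The BiP cochaperone Dnajb9 read 1.30 and 0.782, then 7.39 and 9.05 in wild type, and 0.324 and 0.850, then 4.26 and 6.51 in ATF4-/- cells. Its folds were 7.90 and 9.18, but the interval of the difference, -0.96 to 1.09, was wide. The signs for Hspa5 and Dnajb9 turned to negative with 4 times the pseudocount.

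For Hsp90b1 the folds were 2.05 and 1.84 and the difference -0.16 ± 0.19, for the secreted ER factor Manf they were 4.59 and 6.02 and 0.19 ± 0.33, and for Pdia6 2.89 and 4.02 and 0.30 ± 0.24. These 3 genes were called higher in both lines, as were Hspa5, Creld2, Dnajb9, Dnajb11, Dnajc3 and Ero1b. Pdia3, Pdia4 and Ero1a passed in wild type but not in ATF4-/- cells, with differences that did not pass (-0.25 ± 0.24, -0.35 ± 0.39 and -0.80 ± 0.26). Ero1a, the oxidase that recharges disulfide isomerases, stood apart from the rest of the list. It read 1.19 and 1.05, then 2.16 and 2.18 in wild type, and 0.840 and 0.855, then 0.923 and 0.812 in ATF4-/- cells. The wild-type groups did not overlap and the ATF4-/- groups did. The folds were 1.93 and 1.02, the difference -0.80 ± 0.26 (limma adjusted p = 0.405), and a second probe set gave -1.35 ± 0.39. Its paralogue Ero1b rose 4.44-fold and 3.79-fold, with a difference of -0.27 ± 0.32. Calreticulin (Calr) was untested because 1 untreated wild-type array was at the floor, and read 7.96 and 7.34 in treated wild type and 2.29 and 3.72 in treated ATF4-/- cells.

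**Figure D3:**
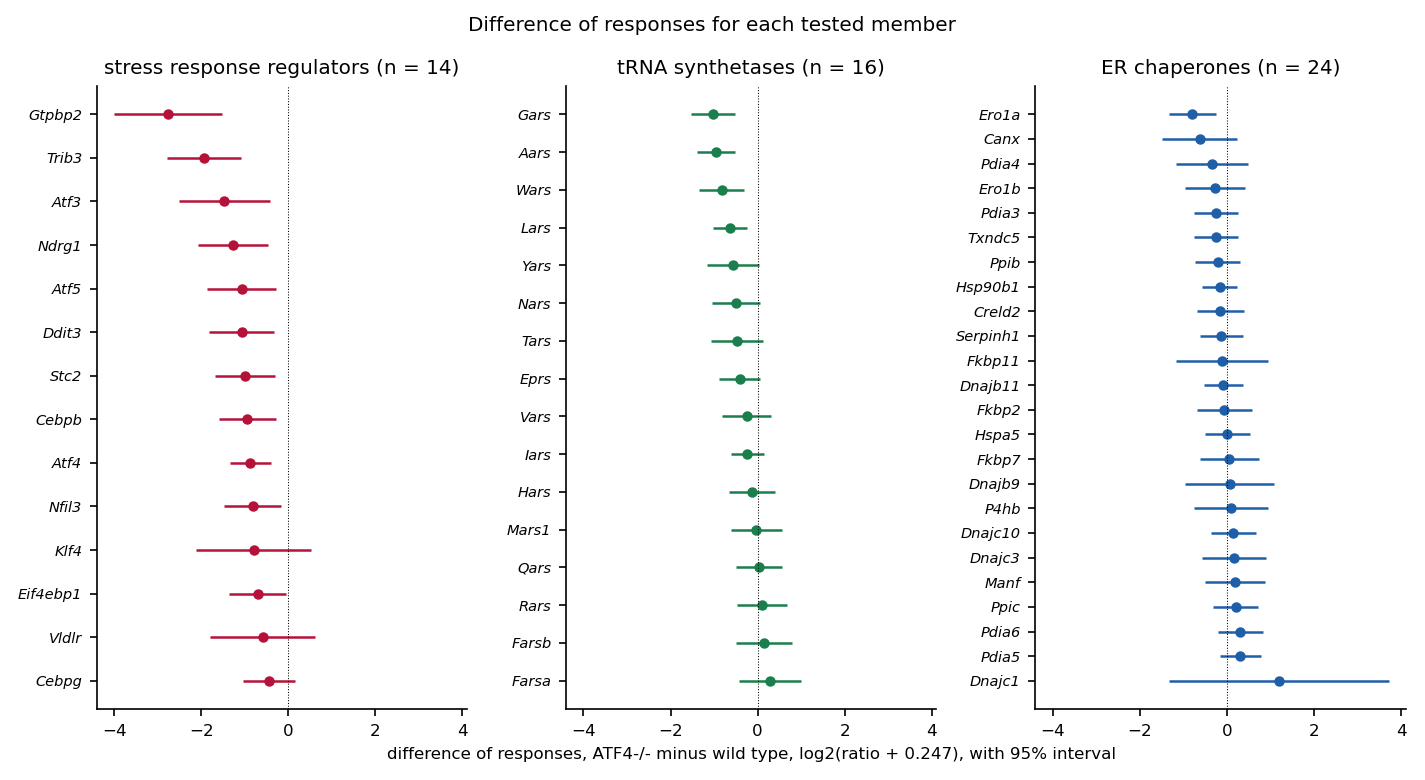
Difference of responses (x axis, log2(ratio + 0.247), ATF4-/- minus wild type) of each tested regulator, tRNA synthetase and ER chaperone, with its 95% interval. All 14 regulators lay below 0, while 11 of 24 chaperones lay above it and Ero1a was the one chaperone whose interval lay wholly below 0.

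Genes of ER-associated degradation and trafficking had a median difference of -0.04 over 30 tested of 32 on the array (41 listed), with 17 below 0 and 13 above. Wild-type cells raised 9 and ATF4-/- cells 5, against 2.05% and 0.882% of all tested probe sets. In the difference 0 were called by limma. At an unadjusted p under 0.05 there were 2, 1 in each direction, against 3.92% lower and 3% higher over all tested probe sets. With the 12 tunicamycin arrays 4 and 2 were called higher, and with the 8 arrays alone 3 and 0. In wild type 4 were called higher without the second untreated or the second treated wild-type array and 5 without the first treated one, and in ATF4-/- cells 2 without the first untreated and 3 without either treated ATF4-/- array. After quantile normalization the order of the lines turned, with 7 called higher in wild type and 10 in ATF4-/- cells, and without the second untreated wild-type array it was 4 and 5. Without the first untreated wild-type array 4 had a lower response in ATF4-/- cells at an unadjusted p under 0.05. Herpud1, which organises the degradation complex, rose 8.62-fold and 14-fold, with a difference of -0.55 ± 0.40 on the log2 scale. Its fold and log2 difference point in opposite directions because its untreated ATF4-/- ratios, 0.0291 and 0.151, lie under the pseudocount, and with the pseudocount divided by 4 the difference was 0.10.

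The ER stress sensor Atf6 read 0.378 and 0.200, then 1.69 and 1.71 in wild type, and 0.285 and 0.465, then 0.799 and 1.15 in ATF4-/- cells. Both lines had treated arrays above untreated ones, with the treated ATF4-/- arrays below the treated wild-type arrays. Atf6 rose 5.89-fold in wild type, had a fold of 2.59 in ATF4-/- cells (limma adjusted p = 0.0844) and had a difference of -0.91 ± 0.36 (limma adjusted p = 0.572). Xbp1, the transcription factor gene of the IRE1 branch, read 0.856 and 0.631, then 1.24 and 1.43 in wild type, and 0.426 and 0.547, then 1.44 and 1.41 in ATF4-/- cells. The treated arrays of both lines lay between 1.24 and 1.44, and the untreated ATF4-/- arrays lay below the untreated wild-type arrays. It rose 1.79-fold and 2.93-fold, with a difference of 0.51 ± 0.22 (limma adjusted p = 0.655). Eif2ak3, the PERK gene, had untreated wild-type ratios of 1.91 and 0.0222, so that its difference of -1.05 ± 0.82 turned to 0.45 without the second of them.

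**Figure D4:**
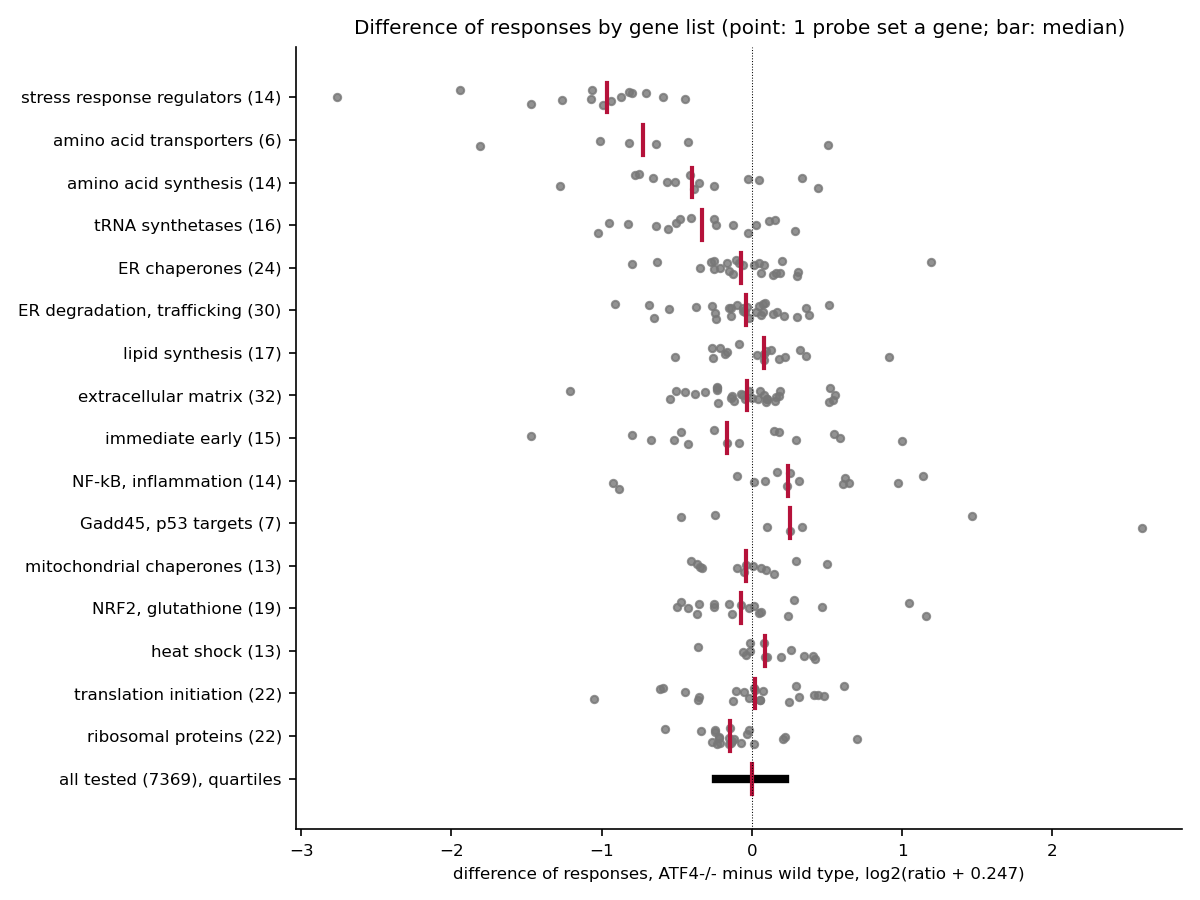
Difference of responses of each tested gene (grey points, 1 probe set a gene, x axis log2(ratio + 0.247), ATF4-/- minus wild type) in 16 lists, with red bars for medians and a black bar for the quartiles of all 7369 tested probe sets. The regulators (-0.96), amino acid transporters (-0.73), amino acid synthesis genes (-0.40) and tRNA synthetases (-0.33) had the 4 lowest medians, and the Gadd45 (0.26) and NF-kB (0.24) lists the 2 highest.

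The 4 probe sets called in the difference were St3gal3, Lonp1, Gadd45b and Mc1r. St3gal3, a sialyltransferase that caps glycans, read 1.27 and 1.21, then 2.83 and 2.78 in wild type, and 2.55 and 2.73, then 1.24 and 1.04 in ATF4-/- cells. It moved in opposite directions with no overlap in either line, up to 2.26-fold in wild type (limma adjusted p = 0.00295) and down to 0.431-fold in ATF4-/- cells (limma adjusted p = 0.00391). The difference was -2.10 ± 0.24, with a 95% interval from -2.61 to -1.59 and a limma adjusted p of 0.00164.

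One probe set of Lonp1, the mitochondrial matrix protease, read 0.336 and 0.0520, then 1.88 and 1.38 in wild type, and between 0.0213 and 0.0891 on the 4 ATF4-/- arrays. The treated wild-type arrays stood apart from the other 6. The difference was -2.28 ± 0.38 (limma adjusted p = 0.0390), but the other tested Lonp1 probe set gave 0.50 ± 0.43, so the gene's response is uncertain. Of the 13 tested mitochondrial chaperones and proteases, for which that other probe set was used, the median difference was -0.04 and 0 were called in the difference by limma or reached an unadjusted p under 0.05.

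Gadd45b, a stress-inducible gene of growth arrest, read 0.720 and 0.529, then 0.205 and 0.315 in wild type, and 0.276 and 0.327, then 2.04 and 1.38 in ATF4-/- cells. Treated arrays were below untreated ones in wild type and above them in ATF4-/- cells. Gadd45b rose 5.67-fold in ATF4-/- cells (limma adjusted p = 0.00184), against a fold of 0.417 in wild type that did not pass (limma adjusted p = 0.163). The difference was 2.60 ± 0.38 (95% interval 1.79 to 3.40, limma adjusted p = 0.0163), and a second probe set gave 1.35 ± 0.36. Mc1r, the melanocortin receptor gene, read 4.05 and 4.68, then 0.712 and 0.886 in wild type, and 1.17 and 0.992, then 1.09 and 1.30 in ATF4-/- cells. It fell to 0.183-fold in wild type (limma adjusted p = 0.000227), below all 4 ATF4-/- arrays, and the ATF4-/- groups overlapped. The difference was 2.26 ± 0.35 (limma adjusted p = 0.0228).

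Each of these 4 calls ended in the 2 fits on fewer arrays. With the 12 tunicamycin arrays the limma adjusted p was 0.368 for St3gal3, 0.466 for Gadd45b and Mc1r and 0.650 for Lonp1, and with the 8 arrays it was 0.195, 0.195, 0.195 and 0.491. Of 21 settings in all, St3gal3 was called in 19, Gadd45b in 16, Mc1r in 15 and Lonp1 in 11. With 4 times the pseudocount the differences of Gadd45b and Lonp1 were smaller, at 1.42 and -1.19. Gadd45b lost its call without the first treated wild-type array (0.0505) and without the first treated ATF4-/- array (0.0559). Mc1r lost it without the first treated wild-type array (0.0629) and without either treated ATF4-/- array (0.0536 and 0.0794). Lonp1 lost it without the first treated wild-type array (0.0997), the second untreated ATF4-/- array (0.0625) or either treated ATF4-/- array (0.0867 and 0.0794).

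The genes nearest to the threshold were taken only where treated and untreated arrays did not overlap in the line with the larger response. Lack of overlap in that line is therefore set by the choice and is not a result. Nearest with smaller responses in ATF4-/- cells were Ly6g (-2.73 ± 0.49, limma adjusted p = 0.0598) and Ptx3 (-2.05 ± 0.38, 0.0785). Ly6g, of the Ly6 family of closely related surface antigens, read 1.64 and 2.02, then 5.17 and 6.66 in wild type, and 2.0 and 2.28, then 0.877 and 0.755 in ATF4-/- cells. It rose 3.23-fold in wild type and had a fold of 0.381 in ATF4-/- cells, with no overlap in either line. Ptx3, a secreted pentraxin of innate immunity, read 2.33 and 1.25, then 7.28 and 8.44 in wild type, and between 0.437 and 0.535 on the 4 ATF4-/- arrays. It rose 4.39-fold in wild type and was 0.993-fold its untreated level in ATF4-/- cells, where its untreated level was already lower (-1.42 on the log2 scale, limma adjusted p = 0.0207). The next were Stbd1 (-1.44, limma adjusted p = 0.113), Trib3, Aars and Gtpbp2, followed by Rcc2 (-1.47), Rusc1 (-2.30), Rbpj (-1.26), Gzmf (-1.60) and A4galt (-0.98), with limma adjusted p-values up to 0.153. Without the first untreated wild-type array the Rusc1 difference was -1.38 (limma adjusted p = 0.0246) and without the second -3.23 (1.77e-05), and another Rusc1 probe set gave 0.32 ± 0.70.

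In the other direction the nearest was Bet1l, a Golgi SNARE gene, at 1.88 ± 0.34 (limma adjusted p = 0.0598), whose untreated ATF4-/- ratios were 0.0633 and 0.0336. Klf10, a TGF-beta-inducible transcription factor gene, read 0.847 and 0.708, then 0.427 and 0.360 in wild type, and 0.728 and 0.733, then 1.13 and 0.843 in ATF4-/- cells. Treated arrays lay below untreated ones in wild type and above them in ATF4-/- cells, and the difference was 1.0 ± 0.20 (limma adjusted p = 0.113). Gadd45g had the same arrangement, at 1.07 and 0.991, then 0.448 and 0.399 in wild type, and 0.981 and 0.672, then 1.55 and 1.08 in ATF4-/- cells. Its fall to 0.412-fold in wild type passed (limma adjusted p = 0.0398), and its difference was 1.47 ± 0.32 (limma adjusted p = 0.145). Gadd45a, untested, went the other way, at 0.96 and 0.31, then 7.94 and 9.32 in wild type, and at the floor on both untreated ATF4-/- arrays, then 0.22 and 0.72. The 3 Gadd45 genes therefore did not share a direction. Over the 7 tested genes of the Gadd45 and p53 list the median difference was 0.26, with 5 above 0, and it ran from -0.06 to 0.36 over the settings. By limma 1 was called, against 0.0543% of all tested probe sets. At an unadjusted p under 0.05, 2 had a higher response in ATF4-/- cells, against 3%.

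Snhg5, a host gene of small nucleolar RNAs, rose 4.03-fold in ATF4-/- cells and had a fold of 1.72 in wild type, with a difference of 1.12 ± 0.28. The rest of this group were Diaph1 (1.25, with 0.54 and -0.08 from other probe sets), Rexo1 (1.64), Fgfr1op2 (2.15), Cct2 (1.78), Lamb2 (1.22) and Tubb4a (3.84), with limma adjusted p-values from 0.125 to 0.264. Of 14 tested NF-kB subunits, inhibitors and inflammatory genes, 11 had a difference above 0, with a median of 0.24 and 0 called by limma. At an unadjusted p under 0.05, 2 had a higher response in ATF4-/- cells, Relb and Csf1, against 3% of all tested probe sets. Relb, an NF-kB subunit of the alternative pathway, read 0.636 and 0.377, then 1.16 and 0.657 in wild type, and 0.185 and 0.314, then 1.08 and 1.78 in ATF4-/- cells. It rose 5.75-fold in ATF4-/- cells and had a fold of 1.79 in wild type, with a difference of 1.14 ± 0.36 (limma adjusted p = 0.405). A second Relb probe set, untested because 2 arrays were at the floor, did not share this arrangement. It read 0.817 and 0.01, then 1.68 and 2.29 in wild type, and 0.01 and 1.56, then 0.514 and 1.10 in ATF4-/- cells, with the treated arrays above the untreated ones in wild type and an overlap in ATF4-/- cells. The list median ran from 0.09 to 0.39 over the settings.

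Other lists had medians closer to 0. The median difference was 0.08 for cholesterol and fatty acid synthesis, -0.03 for extracellular matrix, -0.16 for immediate early factors, -0.07 for NRF2 and glutathione genes, 0.08 for cytosolic heat shock chaperones and 0.02 for translation initiation factors, with 0 called by limma in each. At an unadjusted p under 0.05 there were 0 lipid, heat shock and translation factor genes, 1 matrix gene (Eln, -1.21), 2 immediate early genes (Atf3 and Klf10) and 2 NRF2 genes (Hmox1, -0.50, and Nqo1, 1.05). Of all tested probe sets, 3.92% had a lower and 3% a higher response at that level. Another tested Nqo1 probe set gave 0.18 ± 0.35, and another Eln probe set, untested, overlapped between treatments in both lines. Ribosomal protein genes had a small median of -0.15, with 18 of 22 below 0, 0 called by limma and 0 at an unadjusted p under 0.05. Both treated arrays lay above both untreated ones for 12 of the 22 in wild type, against 22.1% of all tested probe sets, and for 1 in ATF4-/- cells, against 25%, with 0 called in either line by limma.

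Another list came from the SS line, whose arrays do not enter the difference itself. There, 8 h of AP20187 raised 636 probe sets (8.63% of those tested, limma) and lowered 280, while after quantile normalization the calls were 267 higher and 251 lower. Their median difference of tunicamycin responses was -0.01, with 51.4% below 0, beside 0.00 and 49.9% for all tested probe sets. At an unadjusted p under 0.05, however, 69 of the 636 had a lower response in ATF4-/- cells (10.8%, against 3.92% of all tested probe sets) and 16 a higher one (2.52%, against 3%). Tunicamycin raised 79 of them in wild type (12.4%, against 2.05%) and 27 in ATF4-/- cells (4.25%, against 0.882%). The SS calls and these tests came from the same fit, with a shared spread estimate and a shared floor filter. The list was therefore not independent of the arrays of the difference. The part of this sharing in these shares of probe sets was not tested. Split by the size of the SS change, a split chosen after the data were seen, the median was 0.07 for the 20 with a change under 0.5, 0.02 for the 404 with a change from 0.5 to 1, -0.06 for the 161 from 1 to 1.5 and -0.48 for the 51 at 1.5 or more. Of those 51, 40 lay below 0 (78.4%), 20 had a lower and 1 a higher response in ATF4-/- cells at an unadjusted p under 0.05, and the median response was 0.61 in wild type and 0.08 in ATF4-/- cells. In wild type 17 of them were called higher, and in ATF4-/- cells 3. Their median change in the AA line at 8 h was -0.10, against -0.04 over all tested probe sets. The 2 AA arrays at 8 h had a correlation of 0.675. The 51 probe sets include 7 of the regulators already described (Atf3, Ddit3, Trib3, Gtpbp2, Ndrg1, Atf5 and Vldlr), and some genes are represented by more than 1 probe set.

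**Figure D5:**
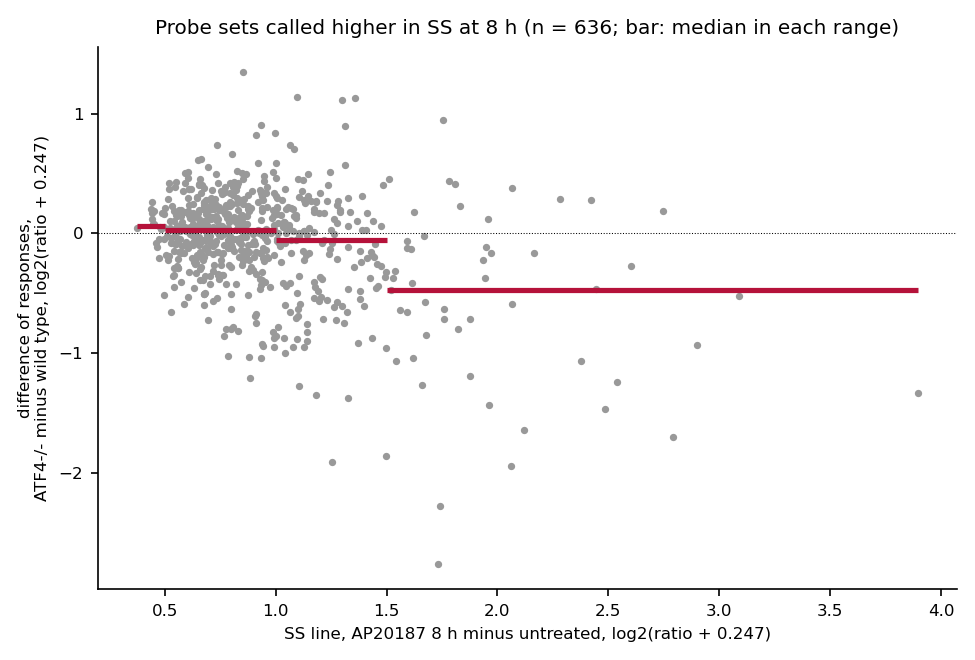
Difference of tunicamycin responses (y axis, ATF4-/- minus wild type) against the change in the SS line after 8 h of AP20187 (x axis) for the 636 probe sets called higher there, both on log2(ratio + 0.247). Red bars mark medians within ranges of the SS change, 0.07 under 0.5, 0.02 from 0.5 to 1, -0.06 from 1 to 1.5 and -0.48 at 1.5 or more.

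Taking 1 chosen probe set for each gene, the 12 genes with the greatest SS changes had differences of varied size. Only Fos and Acbd6 had estimates above 0, and both intervals spanned 0. Gch1, the first enzyme of tetrahydrobiopterin synthesis, rose 5.35-fold with tunicamycin in wild type, had a fold of 1.49 in ATF4-/- cells and differed by -1.70 ± 0.64 (limma adjusted p = 0.539). Itpr2, an ER calcium channel gene, had folds of 1.91 and 0.654 and a difference of -1.24 ± 0.36 (limma adjusted p = 0.322). The immediate early genes Fos (0.18 ± 0.28) and Egr1 (-0.16 ± 0.33) had differences whose intervals spanned 0, and another Fos probe set gave -1.67 ± 0.79. Acbd6 was at 0.29 ± 0.42, Madcam1 at -0.46 ± 0.31, Reep6 at -0.17 ± 0.44 and B4galnt2 at -0.52 ± 1.02, beside Atf3, Ddit3, Trib3 and Vldlr, whose values are given above.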

How the data were processed

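The deposited values of the 24 arrays cover 12488 probe sets, of which 66 AFFX controls were left out. The deposited values read as linear ratios to the median of the same probe set, since 91.5% of probe-set medians lie within 0.01 of 1. How the authors read, scaled and centred the arrays is not given in the sources used here. Brightness and signal over background are therefore unknown, and the number of arrays limits precision. Groups came from the labels' sample descriptions. Testing covered the 7369 probe sets with no value at the floor of 0.01 on the 24 arrays. With limma 3.58.1 in R 4.3.3 (package data.table, 1.17.8), group means of the 12 groups were fitted on log2(ratio + 0.247), where 0.247 is the overall median divided by 4, with a trended prior, 12 residual degrees of freedom, two-sided contrasts and Benjamini-Hochberg adjustment over the 7369 at 0.05. "Called" means an adjusted p under 0.05.

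Names came from the platform annotation (10833 probe sets with 1 symbol, 396 with several and 1193 with none), of which 10817 matched RefSeq by Entrez ID with 0 symbols changed. Each gene used its probe set least often at the floor, then a plain suffix, then the lowest number. Named genes were the called ones, the 12 nearest the threshold in each direction, a set of preset stress genes, each list's up to 4 smallest p and those against the others. The 12 with the greatest change in SS and list members at the floor, by value, were named too. Those nearest the threshold were chosen probe sets of exactly 1 gene. Their treated and untreated arrays had to be without overlap in the line with the larger absolute response. The members, the 22 lists and this rule were chosen with earlier results of these data known. Of the marker lists, the median difference was -0.03 for fibroblast (10 of 12 markers tested) and -0.03 for smooth muscle (6 of 8). It was -0.16 for leukocyte (3 of 10), 0.50 for endothelial (2 of 8) and -0.51 for adipocyte markers (3 of 5). The 1 epithelial marker tested, of 7, had -0.43. In each list 0 were called by limma and 0 had an unadjusted p under 0.05. The scripts were tested on simulated data.

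Alternatives covered the arrays fitted, weights, filters, pseudocount, normalization, prior, a replicate block and leaving out each array.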

Additional observations from a re-analysis of the deposited data

Results flagged for a closer look

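The contrast is itself a test of a difference between the 2 lines, and 4 probe sets passed it. The differences, ATF4-/- minus wild type on log2(ratio + 0.247), were -2.10 for St3gal3, -2.28 for 1 Lonp1 probe set, 2.60 for Gadd45b and 2.26 for Mc1r. St3gal3 is the one of the 4 whose response passed the test in both lines, in opposite directions.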

How the results depend on the processing

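Against 4 calls of the difference, 0 were made with the tunicamycin arrays only, 0 with the 8 arrays only, 2 with a weight for each set of arrays (0.807 and 1.24), 36 with no filter (18 higher and 18 lower), 7 with 4 times the pseudocount, 7 with quantile normalization, 8 with no trend in the prior, and 3 with the replicate block. Deviations of same-numbered arrays from their group means correlated at -0.0014 in wild type and 0.0131 in ATF4-/- cells. These values, taken over probe sets within each line, cannot show whether such arrays were paired, which the labels do not state. Leaving out 1 array gave 2 to 22 calls, with 22 and 20 without the first and second untreated wild-type array, 8 without the second treated wild-type array, 8 and 14 without the first and second untreated ATF4-/- array and 2 without the first treated ATF4-/- array. For the wild-type response (207 calls) the 2 smaller sets and the weights gave 62, 52 and 123, and leaving out 1 array 117 to 198 (117 without the second untreated, 123 and 127 without the first and second treated wild-type array). For ATF4-/- (85 calls) they gave 31, 0 and 50, quantile normalization 200, and leaving out 1 array 37 to 97 (37 and 45 without the first and second treated ATF4-/- array). The SS response at 8 h, with 916 calls, had 518 after quantile normalization. The untreated contrast (64 calls) had 7, 5 and 33 with the smaller sets and the weights, 119 with no filter, 99 with quantile normalization and 57 with the replicate block, and 40 to 72 without 1 array (42 and 40 without the first and second untreated ATF4-/- array). Signs turned for Hspa5 (-0.072 with 4 times the pseudocount, and -0.16 to 0.19 without 1 array), Dnajb9 (-0.17, and -0.41 to 0.53), Herpud1 (0.10 with the pseudocount divided by 4) and Eif2ak3 (-2.55 to 0.45 without 1 array, the ends being without the first and the second untreated wild-type array). List medians ran from -1.20 to -0.63 for regulators, -0.87 to -0.53 for transporters, -0.52 to -0.29 for synthesis enzymes, -0.48 to -0.22 for synthetases, -0.15 to 0.10 for ER chaperones and -0.12 to 0.08 for ER degradation genes, and that of the 51 SS probe sets from -0.60 to -0.30. Of 660 settings of 33 named probe sets, 30 gave a call that the main setting lacks. The difference moved by over 1.5 times in at least 1 setting for 24 of the 33, and for 23 of them with 4 times the pseudocount. The causes of these changes were not tested.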
